A study of Mus musculus with 38 samples.

Results

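Broad domains of H3K4me1, a single methyl group on lysine 4 of histone H3, were compared between W6 and W12 of SOX9 induction in epidermal stem cells (EpdSCs) of mouse skin. Every domain of both deposited lists was a member. Each list was divided into domains that overlapped a domain of the other list by at least 1 bp, here called shared, and domains that did not, here called W6-only and W12-only. On the 21 chromosomes used, the W6 list held 79556 domains and the W12 list 74316, and 15125 W6-only and 8806 W12-only domains were found. The series holds 5 such lists for skin, 1 each for D0, W1, W2, W6 and W12. The other 3 were used here to follow the members back in time and as lists for comparison.

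All cells carried K14rtTA and TRE-myc-Sox9, in which the keratin-14 promoter drives the doxycycline-dependent activator rtTA in the epithelium and doxycycline (DOX) then induces MYC-tagged SOX9. Male back skin was used, and CD49f-high, CD34-negative, Ly6A-high cells were sorted after CD31, CD45, CD117 and CD140a cells had been excluded. W6 cells came from intact mice after 6 weeks of DOX. W12 cells came, by the study's methods, from neonatal skin of this genotype grafted onto immunocompromised female Nude hosts and induced after healing, since intact mice could not be kept beyond W6. The sample labels, in contrast, give DOX from P21 for W12 as for W6. Time on DOX, grafting, the age of the donor skin and the host therefore cannot be told apart in any value given here. The W6 list pooled 4 samples, 2 replicates each with a high and a low dose of micrococcal nuclease (MNase), and the W12 list pooled 2 libraries, high and low MNase, each holding W12 replicates 1 and 2 together with W2 replicate 1, told apart by barcode. With 1 pooled list per time point there was no replicate check and no test. Exact 95% intervals on shares cover counting error only. The depth of the H3K4me1 libraries is unknown, and the absence of a domain from a list means that none was called, not that the mark was absent.

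H3K4me1 is placed mainly by the methyltransferases MLL3 and MLL4 and marks enhancers, the distal elements from which transcription factors act on genes, and the flanks of active promoters. Enhancers that carry H3K4me1 alone are regarded as primed, and those that also carry acetylation of lysine 27 of H3 (H3K27ac) as active. In skin, EpdSCs maintain the epidermis and hair follicle stem cells (HFSCs), of which SOX9 is a master regulator, maintain the follicle.

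The 7 sequences printed here show what lay at the summits of H3K27ac peaks that overlapped domains found at one time only. All are 300 bases from GRCm38, + strand, centred on the summit, and lie outside annotated exons. Capitals mark matches, on either strand, to 1 of 8 short motifs of factors known in skin. For SOX factors the letters were ACAAAG and, as a variant of the same core, ACAATG. The RUNX motif was spelled TGTGGT and the AP1 motif, bound by FOS and JUN dimers, TGANTCA. For GATA factors AGATAA was searched, and for TEAD factors, which act with YAP and TAZ, GGAATG. NFI was read as TTGGCA, the ETS family as CCGGAAG and the GRHL family as AACCNGTT. No letters of one motif contain those of another. A match describes letters and not a bound site. The first pair comes from the highest-scoring peaks. The W6-only window at chr3:65974451-65974750, between genes and 15352 bp from the domain's nearest protein-coding start site (*Ccnl1*), was acetylated in all 5 H3K27ac lists. Its domain ended at base 65974600, so that the summit and the right part of the window lay just outside it. The W12-only window at chr11:3123791-3124090, at the start site of *Gm11400* beside *Sfi1*, was also acetylated in all 5 lists.
W6-only, Ccnl1: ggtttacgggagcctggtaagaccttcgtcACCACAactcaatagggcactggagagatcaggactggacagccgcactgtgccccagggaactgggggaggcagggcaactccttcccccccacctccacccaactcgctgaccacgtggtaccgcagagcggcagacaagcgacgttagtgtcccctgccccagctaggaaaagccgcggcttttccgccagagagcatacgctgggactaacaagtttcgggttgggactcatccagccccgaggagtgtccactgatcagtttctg
W12-only, Sfi1: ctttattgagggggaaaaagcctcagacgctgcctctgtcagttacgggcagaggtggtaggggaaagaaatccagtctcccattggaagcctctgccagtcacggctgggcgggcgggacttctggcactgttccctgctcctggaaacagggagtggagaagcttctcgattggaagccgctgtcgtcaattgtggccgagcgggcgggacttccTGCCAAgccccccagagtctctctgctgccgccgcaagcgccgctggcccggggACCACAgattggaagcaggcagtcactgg

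The next 5 windows were chosen after their values were seen, from the highest-scoring distal peaks, over 2500 bp from a start site, that were called at one of the 2 time points only. The 2 from W6-only domains each contained a tRNA gene. The window at chr13:23453420-23453719, between genes, held n-TLcag10, a leucine tRNA gene, at bases 13 to 95 on the − strand. The window at chr13:21940874-21941173, in an intron near *Zfp184*, held n-TSaga8, a serine tRNA gene, at bases 41 to 122 on the − strand. Genes for tRNA exist in near-identical copies, and how reads were divided among them is not given in the sources used here.
W6-only, n-TLcag10: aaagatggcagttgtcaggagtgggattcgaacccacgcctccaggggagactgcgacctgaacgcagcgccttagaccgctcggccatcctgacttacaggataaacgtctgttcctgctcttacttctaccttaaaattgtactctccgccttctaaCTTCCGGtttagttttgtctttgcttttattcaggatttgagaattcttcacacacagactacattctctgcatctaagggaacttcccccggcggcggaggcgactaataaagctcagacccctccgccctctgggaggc
W6-only, n-TSaga8: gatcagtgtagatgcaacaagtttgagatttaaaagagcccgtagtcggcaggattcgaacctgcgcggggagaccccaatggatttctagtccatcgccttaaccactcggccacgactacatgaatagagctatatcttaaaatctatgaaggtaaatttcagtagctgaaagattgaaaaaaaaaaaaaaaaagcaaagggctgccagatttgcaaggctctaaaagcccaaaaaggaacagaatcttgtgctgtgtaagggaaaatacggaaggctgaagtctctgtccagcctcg

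The 3 windows from W12-only domains held no tRNA gene, and each held 1 SOX match. So few chosen windows give no share of the set. In such 300-base windows SOX letters were found at 36.0% of the 483 W12 peaks in W12-only domains. At the 468 W6 peaks in W6-only domains the share was 23.9%, and at all W6 peaks 29.3%. In the central 400 bp of the domains it was 47.2% for W12-only and 48.3% for W6-only. The window at chr1:183865278-183865577 lay between genes, 51930 bp from *Gm38332*. The window at chr4:41037524-41037823 lay in an intron near *Aqp7*, and 60.3% of its bases were repeat-masked. The window at chr11:113659676-113659975, beside *Cog1*, was 81.3% repeat-masked. Such repeated sequence can be hard to place with short reads.
W12-only, Gm38332: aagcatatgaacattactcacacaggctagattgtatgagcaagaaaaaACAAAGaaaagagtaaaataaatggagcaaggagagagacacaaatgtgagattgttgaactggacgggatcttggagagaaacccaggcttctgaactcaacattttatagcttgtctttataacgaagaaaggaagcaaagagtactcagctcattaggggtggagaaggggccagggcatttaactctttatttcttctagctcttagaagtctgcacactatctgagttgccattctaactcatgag
W12-only, Aqp7: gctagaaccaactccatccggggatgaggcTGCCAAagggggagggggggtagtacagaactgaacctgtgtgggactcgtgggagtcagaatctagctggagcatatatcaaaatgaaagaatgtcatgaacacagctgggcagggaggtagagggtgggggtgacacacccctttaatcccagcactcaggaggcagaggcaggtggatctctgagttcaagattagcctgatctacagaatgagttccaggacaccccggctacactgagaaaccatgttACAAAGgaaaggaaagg
W12-only, Cog1: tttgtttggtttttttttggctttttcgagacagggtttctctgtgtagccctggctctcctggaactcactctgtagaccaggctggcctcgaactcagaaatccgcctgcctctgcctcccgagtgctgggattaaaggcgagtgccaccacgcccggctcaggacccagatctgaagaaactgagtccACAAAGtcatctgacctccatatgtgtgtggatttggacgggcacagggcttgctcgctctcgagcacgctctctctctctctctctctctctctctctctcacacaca

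Most H3K4me1 domains of W6 were found again in grafted skin at W12. W6-only domains were 19.0% of the W6 list (95% interval 18.7 to 19.3%), and W12-only domains were 11.8% of the W12 list (11.6 to 12.1%). With lists of equal length the shares were 16.6% and 14.5%, so that most of the gap went with list length. By length the difference was smaller, since the lists covered 272.6 Mb at W6 and 269.8 Mb at W12 and had 212.8 Mb in common. W6-only domains held 22.2 Mb, or 8.16% of the W6 bases, and W12-only domains 17.97 Mb, or 6.66% of the W12 bases. The Jaccard index, the bases in both lists over the bases in either, was 0.646. The remaining unshared bases lay within shared domains.

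Domains found at one time only were narrow and weak. The median width was 1200 bp in the W6-only set and 1800 bp in the W12-only set, against 2800 bp in shared domains of both lists. The median p-value given by the caller was 1.13e-11 in W6-only and 6.72e-48 in shared W6 domains, and 1.41e-10 in W12-only and 4.34e-30 in shared W12 domains. When each list was cut by p-value into 10 groups of equal size, 1 domain (0.0126%) of the strongest group at W6 was W6-only and 52.0% of the weakest group. At W12 the same shares were 0.0269% and 39.6%. Width gave a similar grading: 60.2% of W6 domains of 200 to 600 bp were W6-only and 0 of 2507 domains of 12000 bp or more, which allows a share of up to 0.147% (exact upper limit). Domains whose p-value the caller listed as 0 had a counterpart in 4673 of 4673 cases at W6 and in all but 1 of 1288 cases at W12. Few unmatched domains sat directly beside a domain of the other list, as the median gap to the nearest one was 5600 bp for W6-only and 7000 bp for W12-only domains.

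**Figure D1:**
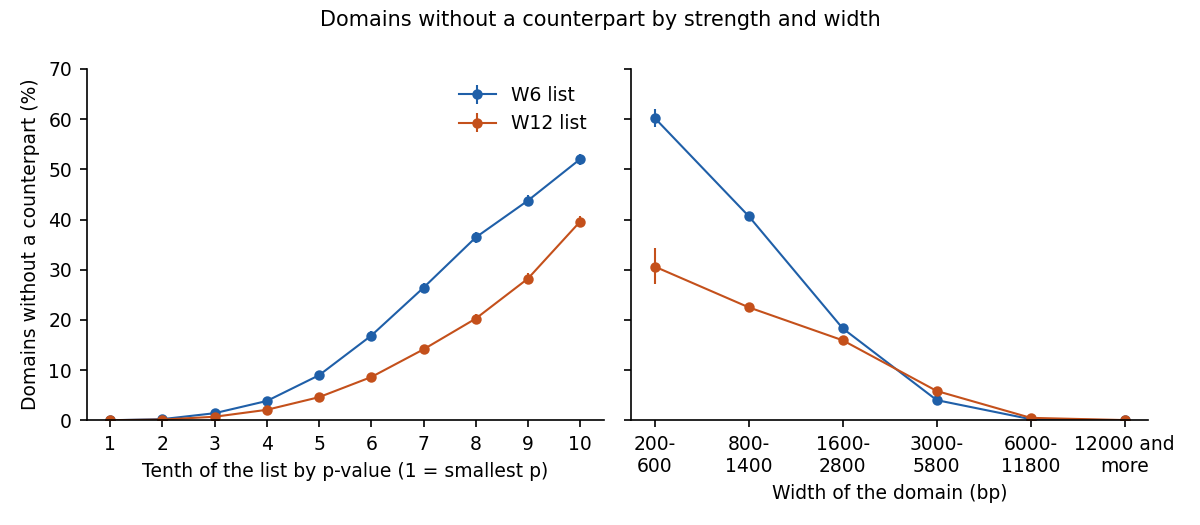
Share of domains (%) without a counterpart in the other list, by groups of 10% of the list in order of p-value (left) and by width in bp (right), for W6 and W12; bars on the points are exact 95% intervals. The share climbs from 0.0126% to 52.0% at W6 and from 0.0269% to 39.6% at W12 from the strongest to the weakest group, and the W6 points exceed the W12 points among narrow domains.

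Chromosome X stood apart from the autosomes among W6-only domains, as it did in some but not all other pairs of lists. There 686 of 1697 domains (40.4%, 38.1 to 42.8%) were W6-only, whereas the autosomes ranged from 16.5% on chromosome 19 to 20.7% on chromosome 18. In the other direction 117 of 1144 X domains (10.2%, 8.53 to 12.1%) were W12-only, within the autosomal range of 9.91% to 14.3%. The X domains of W6 were not weaker than the rest, with a median p-value of 8.51e-39 against 3.89e-35 over the list. In the stronger 50% of the W6 list 187 of 935 X domains (17.5 to 22.7%) were W6-only, against 2.49% of autosomal domains. In the weaker 50% the shares were 65.5% and 34.5%.

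The X domains of W12 ranked lower, at a median 61.8% down the list against 49.7% for autosomal domains. The D0 list held 2041 X domains, more than W6 with its 1697, and the W1 and W2 lists 1275 and 1188, close to the 1144 of W12. Of the 686 W6-only X domains, 58.6% were also called at D0, 38.6% at W1 and 34.3% at W2. An excess on X was also found in some other pairs of lists, among them pairs without grafted skin. Among W6 domains, 23.3% of those on X had no D0 domain (16.9% on autosomes), 37.4% no W1 domain (23.3%) and 41.96% no W2 domain (22.96%). Among D0 domains 54.04% of those on X had no W2 domain, against 31.8% on autosomes. The donor cells are labelled male at both times, whereas the hosts of the grafts were female. Whether this has a part in the X result was not tested. Chromosome Y held 8 domains at W6 and 3 at W12, too few for a share.

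**Figure D2:**
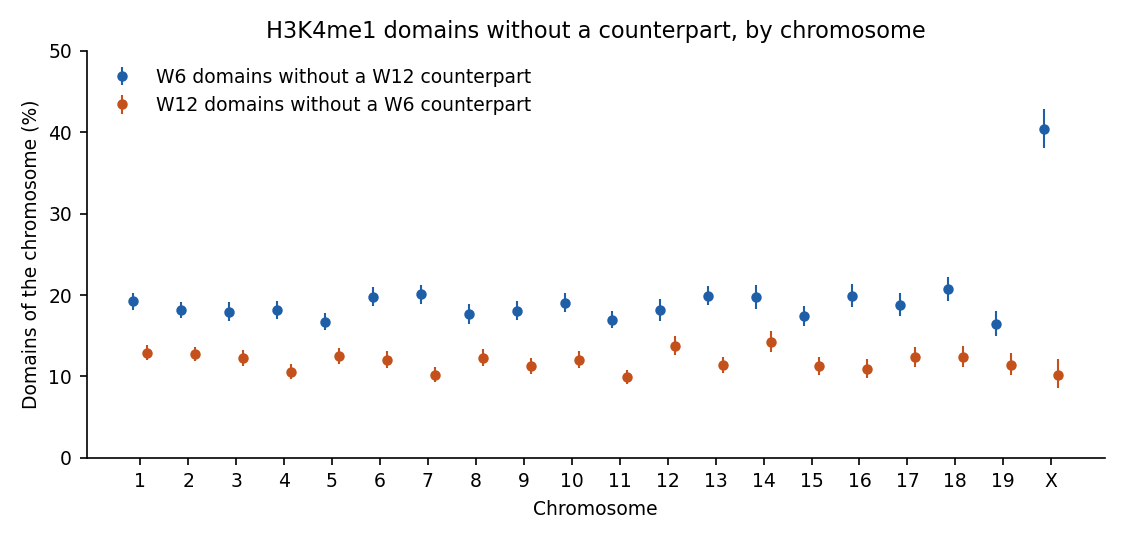
Share of the domains of each chromosome (%) that were W6-only (of the W6 list) or W12-only (of the W12 list), with exact 95% intervals. Chromosome X lies at 40.4% for W6-only domains, above every autosome (16.5% to 20.7%), and at 10.2% for W12-only domains, among the autosomes.

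Both sets lay mainly away from start sites, the W12-only set more so. Of W6-only domains 81.1% (80.4 to 81.7%) were over 2500 bp from any start site, and of W12-only domains 85.5% (84.8 to 86.3%), compared with 66.0% and 65.4% of shared domains. By annotation 33.4% of W6-only domains lay in introns, 37.5% between genes, 10.2% over exons and 18.9% within 2500 bp of a start site. W12-only domains lay in introns in 38.5%, between genes in 34.4%, over exons in 12.6% and near start sites in 14.5% of cases. The median distance to the nearest start site was 12935 bp for W6-only and 15485 bp for W12-only domains, against 7924 and 7767 bp for shared ones. W6-only domains near start sites formed 11.6% of all W6 domains there, and W12-only domains near start sites 5.32% of all W12 domains there.

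Start sites themselves were less often under H3K4me1 at W12. Of 41492 start sites of protein-coding genes 52.9% lay in a domain at W6 and 44.4% at W12, with 49.5% at D0, 46.8% at W1 and 54.0% at W2. For H3K27ac the shares were 39.7% at W6 and 20.7% at W12, against 33.7%, 29.8% and 35.4% at D0, W1 and W2. Both marks thus had their lowest coverage of start sites in the W12 lists. The number of H3K27ac peaks was 30516 at W6 and 33985 at W12.

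Many domains found at one late time only had been called earlier, though less often than domains of the whole lists. Of W6-only domains 73.7% overlapped a domain at D0, W1 or W2, with 57.1% at D0, 43.4% at W1 and 44.7% at W2. Of W12-only domains 62.1% did, with 47.6% at D0, 25.8% at W1 and 32.5% at W2. Over the whole lists 91.4% of W6 domains and 91.8% of W12 domains overlapped a domain at D0, W1 or W2. Shared domains overlapped a D0 domain in 89.0% (W6) and 89.3% (W12) of cases. Domains called at all 3 earlier times made up 23.4% of the W6-only and 12.4% of the W12-only set, and domains called at D0 and at no other time before made up 13.1% and 17.6%. This left 3975 W6-only domains (26.3%) and 3338 W12-only domains (37.9%) that no earlier list contained. The same shares were 8.61% of all W6 and 8.21% of all W12 domains. The D0 list is the longest, with 87287 domains, and can for that reason hold more of any set.

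H3K27ac was rare in both sets. A W6 peak lay in 4.46% (4.14 to 4.80%) of W6-only domains and in 30.97% of shared W6 domains, and a W12 peak in 5.33% (4.87 to 5.82%) of W12-only domains and in 26.97% of shared W12 domains. In W12-only domains the share was lower in every earlier list, at 2.37% at D0, 1.93% at W1, 1.29% at W2 and 0.908% at W6. In W6-only domains it stayed between 3.95% and 4.93% in all 5 lists. Thus 428 W12-only domains (4.86%) carried a W12 peak and no W6 peak and 39 (0.443%) the reverse, against 7.25% and 10.9% of all W12 domains. For W6-only domains 297 (1.96%) had a W12 peak only and 374 (2.47%) a W6 peak only, against 6.44% and 9.56% of all W6 domains.

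The acetylated members of the 2 sets differed in place. Of 675 W6-only domains with a W6 peak 82 (12.1%, 9.78 to 14.9%) were distal, and of 469 W12-only domains with a W12 peak 364 (77.6%, 73.6 to 81.3%). Over the whole lists 36.9% of W6 domains with a W6 peak and 48.1% of W12 domains with a W12 peak were distal, and 77.1% of W12 domains with a W12 peak and no W6 peak. The 468 W6 peaks that overlapped a W6-only and no shared domain had a median GC content of 59.7% and a median fold enrichment of 8.35 (quartiles 5.37 and 13.7). W6 peaks in shared domains had 51.3% and 6.56 (4.77 and 10.7). The 483 W12 peaks that overlapped a W12-only and no shared domain had 46.7% and 4.25 (3.54 and 4.96), against 49.3% and 5.67 (4.25 and 7.79) in shared domains. Acetylated W6-only domains thus lay mostly near start sites, and acetylated W12-only domains were mostly distal. Compared with peaks in shared domains, the 468 W6 peaks had higher medians of GC and fold, and the 483 W12 peaks lower ones, with overlapping quartile ranges of fold.

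**Figure D3:**
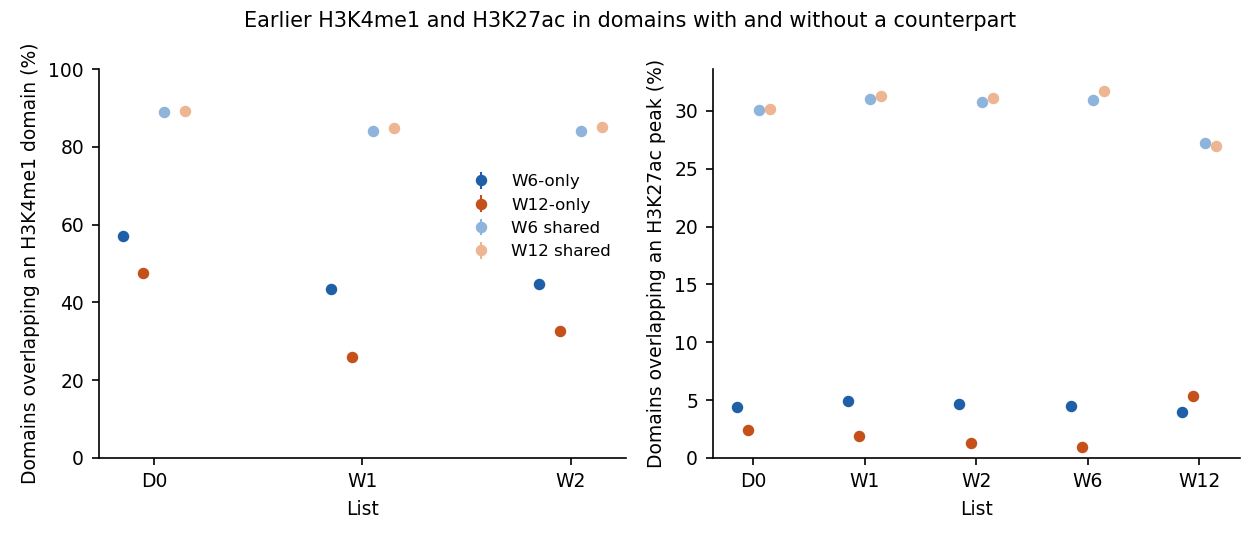
Share of W6-only, W12-only and shared domains (%) that overlapped an H3K4me1 domain of the D0, W1 and W2 lists (left) or an H3K27ac peak of each list from D0 to W12 (right), with exact 95% intervals, most of them smaller than the points. W12-only domains carry H3K27ac in 0.908% of cases at W6 and in 5.33% at W12, and shared domains in 26.97% to 31.7%.

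tRNA genes, the small genes that lay in the 2 W6-only windows from distal peaks printed above, overlapped 13 W6-only domains and 0 W12-only domains, which allows a share of up to 0.0419% of the W12-only set (exact upper limit). W6-only domains overlapped them in 0.0860% of cases, against 0.200% of shared W6 and 0.179% of shared W12 domains. Of 403 annotated tRNA genes 205 lay in an H3K27ac peak at W6 and 48 at W12, with 183, 134 and 180 at D0, W1 and W2. For H3K4me1 the numbers were 222 at W6 and 195 at W12. The difference between the times was thus seen in H3K27ac far more than in H3K4me1. Whether the different make-up of the W6 and W12 H3K27ac lists, given above for start sites, has a part in it was not tested.

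Single domains are named by their nearest start site. The strongest W6-only domain, to which the caller gave 5.42e-209 as p-value, covered 2000 bp over an exon near *Aldh1a1*, which encodes a retinaldehyde dehydrogenase, and had been called at D0, W1 and W2. It carried an H3K27ac peak at both W6 and W12. The next lay 259 bp from the start site of *Wnk1*, a kinase that controls ion transport, was 2400 bp wide, and also carried a peak at both times. A domain of 5000 bp near the start site of *Rdx*, which encodes radixin, a linker of membrane and actin, carried a peak at W6 and none at W12. Of the 10 strongest, 2 were on chromosome X, near *Las1l* (3200 bp) and in the region of *Gpc4* (3000 bp), and neither carried a peak. *Ros1*, a receptor tyrosine kinase gene, lay 8157 bp from another. Between genes near *Gm24869* and near *Gm44909* lay domains of 3800 and 5800 bp that carried a W6 peak and no W12 peak, and those in introns near *Gm29069* (3400 bp) and *4933407I08Rik* (3800 bp) carried none. Of these 10, 7 had been called in all 3 earlier lists.

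One W12-only domain stood apart from all others. It covered 59600 bp at *Sfi1*, which encodes a centrosomal protein, at chr11:3123201-3182800 and had a p-value listed as 0. H3K27ac peaks lay in it at W6 as at W12, 4 each, and an H3K4me1 domain overlapped it at W1 but not at D0 or W2. Coverage of *Sfi1* with 10 kb on both sides was between 1.55% and 3.26% from D0 to W6 and 74.1% at W12. *Sfi1* has copies in the mouse genome that short reads may not tell apart, so the value is uncertain. The next, a domain of 2800 bp near *Gm49043* with a caller's p-value of 1.93e-113, lay 465400 bp from any W6 domain and was in no earlier list.

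The others of the strongest 10 W12-only domains had p-values from 2.16e-97 to 9.67e-68. A domain of 5000 bp over the start site of *Lgals3bp*, which encodes a galectin-binding glycoprotein, carried an H3K27ac peak at W12 and none at W6, and had been called at D0 and W1. A domain of 5800 bp over an exon near *Rapgef4os2*, in the region of the stress-activated kinase gene *Map3k20*, also carried a W12 peak and no W6 peak. Those near *Skint10* (3600 bp) and in introns near *Desi2* (7000 bp) were in all 3 earlier lists. A domain over an exon near *Itsn1*, an endocytic scaffold gene, was called at D0 and W2. Those near *Gm48939*, and in introns near *6430562O15Rik* and near *Scg5*, a gene of the secretory pathway, were in no earlier list.

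Summed by nearest protein-coding start site, W6-only domains were most extensive around *Sox9* itself. There 24 of 89 W6 domains were W6-only and held 45.6 kb, lying between 9777 and 800224 bp from the start site. Over the whole lists 19.0% of W6 domains were W6-only and 11.8% of W12 domains W12-only. The ranking is by bases, in both sets, and so favours genes with many assigned domains. Of the 24 W6-only domains at *Sox9*, 14 had been called at D0, 4 at W1 and 12 at W2, and 0 carried an H3K27ac peak at W6. All domains assigned to *Sox9* covered 321.4 kb at W6 and 265.6 kb at W12, and 4 W12-only domains lay among the latter.

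*Efnb2*, an ephrin ligand of Eph receptors, followed with 28 W6-only domains and 40.8 kb, and its domains covered 238.8 kb at W6 and 150.6 kb at W12. *Robo2*, a receptor for Slit proteins, had 24 (38.8 kb), the adhesion receptor genes *Adgrl3* and *Adgrl2* had 22 (35.2 kb) and 27 (32.2 kb), and *Rgma*, which encodes a guidance molecule, had 20 (33.0 kb). The X-linked glypican gene *Gpc4* had 16 of its 32 W6 domains in the set (33.0 kb). *Mctp2* (35.4 kb), the homeobox gene *Irx2* (32.2 kb) and the zinc finger gene *Zfp608* (32.2 kb) completed the first 10. Across these 10 genes 0 to 2 W6-only domains each carried an H3K27ac peak at either time. Total domain length was lower at W12 in all 10, which follows in part from choosing them for W6-only bases.

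After *Sfi1*, W12-only domains were most extensive around *Rora*, a nuclear receptor gene of the epidermal list. There 18 of 49 W12 domains were W12-only and held 50.2 kb, and 16 of the 18 had been called at D0. Domains assigned to *Rora* covered 93.6 kb at W6 and 181.2 kb at W12. *Plcb1*, a phospholipase C gene, had 14 of its 16 W12 domains in the set (36.8 kb), 7 of them called at D0, and domains assigned to it covered 3.2 kb at W6 and 41.0 kb at W12. In contrast, the zinc finger gene *Zfp521* had 9 (31.4 kb) of which 1 was called at D0, and *Phyhipl* had 10 (24.2 kb) of which 0 were. The semaphorin gene *Sema6d* (29.2 kb), the kinase gene *Prkd1* (26.6 kb), the Polycomb partner gene *Jarid2* (25.8 kb), the calcium channel subunit gene *Cacna2d3* (24.6 kb) and *Maf*, which encodes a leucine zipper factor (24.4 kb), completed the 10.

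Width differed between the times in both directions. A total of 51868 pairs matched 1 to 1, that is 65.2% of the W6 list and 69.8% of the W12 list. Their median width was 2600 bp at both times and the median change was 0 bp. The change was −1200 bp or less in 12.3% of pairs and 1400 bp or less in 90.9%. At W12 47.2% were wider, 42.4% narrower and 10.5% equal, and 43.9% differed by no more than 400 bp, that is 2 bins of the caller. At least 1.5-fold wider at W12 were 9164 pairs (17.7%), and at least 1.5-fold narrower 6593 pairs (12.7%). Both edges had moved outward in 17.7% of pairs and inward in 16.1%, both edges had shifted the same way along the chromosome in 25.8%, and both lay in the same bin in 5.32%. A further 4926 W6 domains overlapped 2 or more W12 domains, and 4137 W12 domains overlapped 2 or more W6 domains.

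The direction of the width change differed with place and acetylation. Pairs in introns were wider at W12 in 53.4% and narrower in 36.8% of cases, with medians of 2200 and 2600 bp, whereas pairs at start sites were wider in 43.8% and narrower in 45.5%. Pairs with a W12 peak of H3K27ac and no W6 peak were wider in 54.1% of cases and narrower in 35.6%. Pairs with a W6 peak and no W12 peak were wider in 36.4% and narrower in 53.6%, and pairs with a peak at both times in 39.8% and 50.5%. Very broad pairs, with a mean width over 16000 bp, were wider in 35.1% and narrower in 57.6% of cases. On chromosome X 40.6% were wider and 48.0% narrower.

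**Figure D4:**
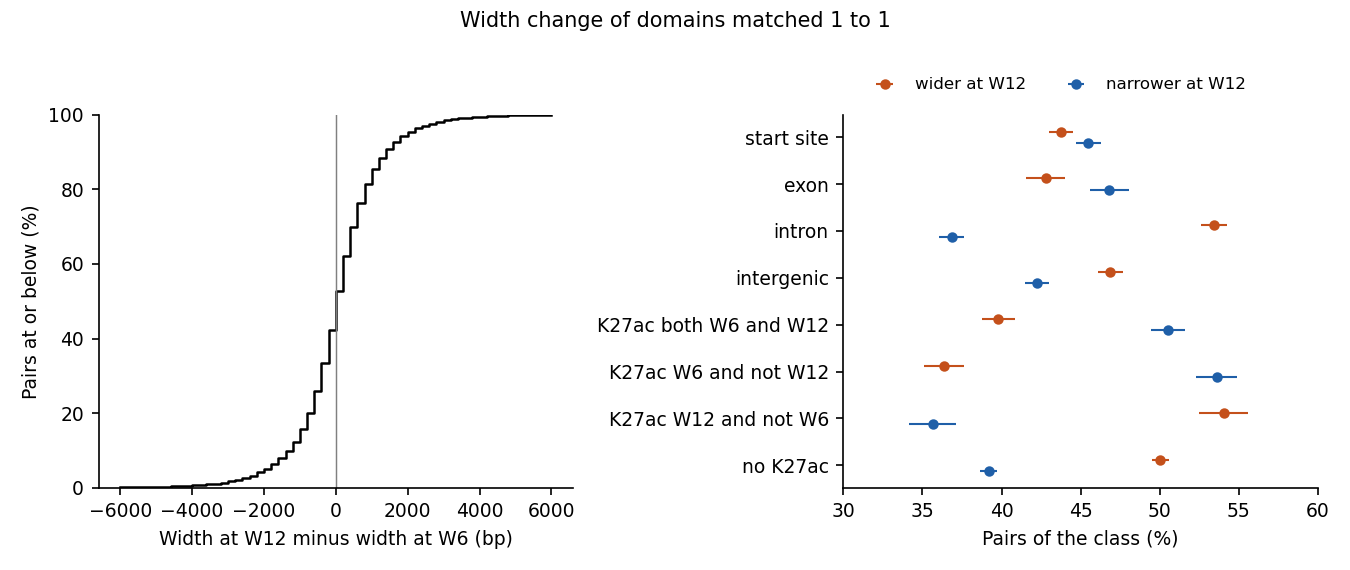
Left, share of 1 to 1 pairs (%) at or below each width difference (W12 minus W6, bp). Right, share of pairs (%) wider and narrower at W12 by place and by H3K27ac, on an axis that starts at 30%, with exact 95% intervals. The curve crosses 0 bp near its middle, as 42.4% of pairs were narrower, and pairs in introns and pairs with a W12 peak only are those with more wider (53.4% and 54.1%) than narrower members by the most.

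Of the 10 pairs that widened most, 5 lay in introns and 2 at start sites. A domain over an exon near *Lpin2*, a phosphatidate phosphatase gene, was 1200 bp wide at W6 and 12200 bp at W12. At *Ifi47*, an interferon-inducible GTPase gene, the domain over the start site had 3000 bp at W6 and 13200 bp at W12. *Rtn4* (2200 and 12200 bp), the lipid enzyme gene *Lpcat1* (2600 and 12400 bp), *Nat8l* (800 and 10000 bp), *Mgat4a* (1800 and 10200 bp) and the potassium channel gene *Kcnh1* (3200 and 11200 bp) followed, with *Gm11761* and *Gm28722* widening by 8800 and 8000 bp. Of these 10, 1 (*Rtn4*) carried an H3K27ac peak at W12 and 0 at W6.

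Among the 10 pairs that narrowed most, a domain between genes near *Gm44844* went from 12000 bp to 1000 bp, with an H3K27ac peak at W6 and none at W12. A domain near *Gm45686* went from 13800 to 2800 bp, also with a peak at W6 only. *Sh2d4b* (11600 and 3400 bp) had a peak at both times, and *Ablim3*, an actin-binding protein gene (11200 and 3000 bp), had none. The rest lay nearest to *D030024E09Rik*, *Gm23497*, *Mir7675*, *D230022J07Rik*, *Gm33474* and *4930511M06Rik*, and their widths differed by −9000 to −8000 bp. Of the 10, 5 carried an H3K27ac peak at W6. The pairs near *Gm23497* and *Mir7675* went the other way, with a peak at W12 and none at W6.

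To relate domains to genes, the gene body was extended by 10 kb at either end and the share of it that lay in domains was taken at W6 and W12 for 21938 protein-coding genes. The median was 15.7% at W6 and 15.4% at W12. A difference of at least 10 percentage points was called: 971 genes (4.43%) were covered more at W12 and 1365 genes (6.22%) less. With lists of equal length the counts were 1180 and 1207, so that most of the excess of genes covered less went with list length. Genes covered less at W12 had also less H3K27ac at W12 in 77.6% of cases, against 49.3% of all genes. Genes covered more at W12 had more H3K27ac in 32.3% of cases, against 18.4% of all genes. A larger part of the genes covered more, 47.8%, had less H3K27ac at W12. Their median H3K27ac coverage was 2.56% at W6 and 2.04% at W12. The 971 genes had a median coverage of 25.5% at W6 and 40.4% at W12, and earlier lists gave 35.6% (D0), 27.7% (W1) and 29.3% (W2). The 1365 genes had 45.0% at W6 and 29.7% at W12, and earlier lists gave 41.3%, 36.3% and 38.7%. On chromosome X 8 of 948 genes (0.844%) were covered more and 72 (7.59%) less.

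Of 307 listed genes, 20 (6.51%) were covered more and 36 (11.7%) less, against 4.43% and 6.22% of all protein-coding genes. These shares over all genes also stand beside the counts of the single lists below. The listed genes had a higher median coverage at W6, 35.1% against 15.7%, and whether this has a part in the counts was not tested. The median difference of a list, W12 minus W6, ranged from −3.53 points (epidermal identity factors) to 2.32 points (endothelial markers), against 0 over all protein-coding genes. The Hedgehog pathway, which drives hair bud growth and basal cell carcinoma, had 0 of 17 genes covered more and 1 less, the co-receptor gene *Boc* (73.0% at W6 and 61.6% at W12). The Hedgehog effector and target *Gli1* had 30.5% and 36.2%, *Gli2* 40.6% and 35.7%, and the receptor gene *Ptch1* 28.1% and 23.2%, all within 10 points.

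The WNT and β-catenin pathway, which specifies the follicle, had 3 genes covered more and 3 less of 32. The ligand genes *Wnt3* (40.7% at W6 and 63.9% at W12) and *Wnt5a* (20.1% and 34.7%) and *Dkk3* (54.6% and 66.3%), related to WNT inhibitors, were covered more. The receptor genes *Fzd7* (64.4% and 40.0%), *Fzd1* (51.4% and 38.2%) and *Fzd10* (59.2% and 49.0%) were covered less. At D0 *Wnt3* had 91.2%, *Wnt5a* 44.97%, *Dkk3* 54.3%, *Fzd7* 46.5%, *Fzd1* 39.8% and *Fzd10* 84.98%, and *Dkk3* and *Fzd10* lay nearer to that level at W6, the other 4 at W12.

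Transcription factors of HFSCs had 2 genes covered more and 0 less of 17. These were *Sox21* (73.0% and 85.6%) and *Hoxc13* (10.1% and 20.2%), a homeobox gene of the hair shaft. *Sox9* had 40.6% at W6 and 46.9% at W12, within 10 points. Its value is uncertain, since the transgene carries the *Sox9* coding sequence and reads of both cannot be told apart. Among 18 HFSC and outer root sheath markers 1 was covered more, *Col17a1*, which encodes a hemidesmosomal collagen (63.4% and 85.9%). Those covered less were *Krt79*, a keratin of the upper follicle (76.2% and 47.8%), and *Lrig1*, an inhibitor of EGFR family receptors (86.9% and 75.3%). Of the 18 markers 7 had a higher and 11 a lower value at W12, with a median difference of −0.603 points.

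Epidermal identity factors had 2 genes covered more and 3 less of 23. *Rora* (13.2% at W6 and 25.3% at W12) and *Maf* (22.7% and 36.5%) were covered more, and 49.2 kb of W12-only domains lay in the *Rora* interval. *Zfp750*, a factor of terminal differentiation (81.8% and 50.1%), *Ovol1*, a repressor that restrains progenitors (96.8% and 78.9%), and *Hes1*, a Notch target (75.2% and 58.2%), were covered less. *Trp63* (55.6% and 54.9%), *Gata3* (57.4% and 54.8%) and *Klf4* (55.5% and 54.7%) differed by less than 3 points.

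Epidermal structural genes had 1 gene covered more and 6 less of 22. *Tgm3*, a transglutaminase of the cornified envelope, had 37.3% at W6 and 64.5% at W12, with 76.6% at D0. The tight junction gene *Cldn1* (71.0% and 47.2%), the basal keratin gene *Krt14* (85.1% and 64.8%) and the suprabasal keratin gene *Krt77* (73.0% and 59.0%) were covered less, as were *Krt10*, *Casp14* and *Dsc1*. *Krt14* is uncertain, since the rtTA transgene carries its promoter and reads of both cannot be told apart. In the Notch and EGFR pathways 1 of 23 genes was covered more, the ligand gene *Jag2* (56.2% and 73.8%). The ligand gene *Dll1* (66.6% and 55.7%) and the target genes *Hes1* and *Hey1* (20.1% and 10.04%) were covered less.

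**Figure D5:**
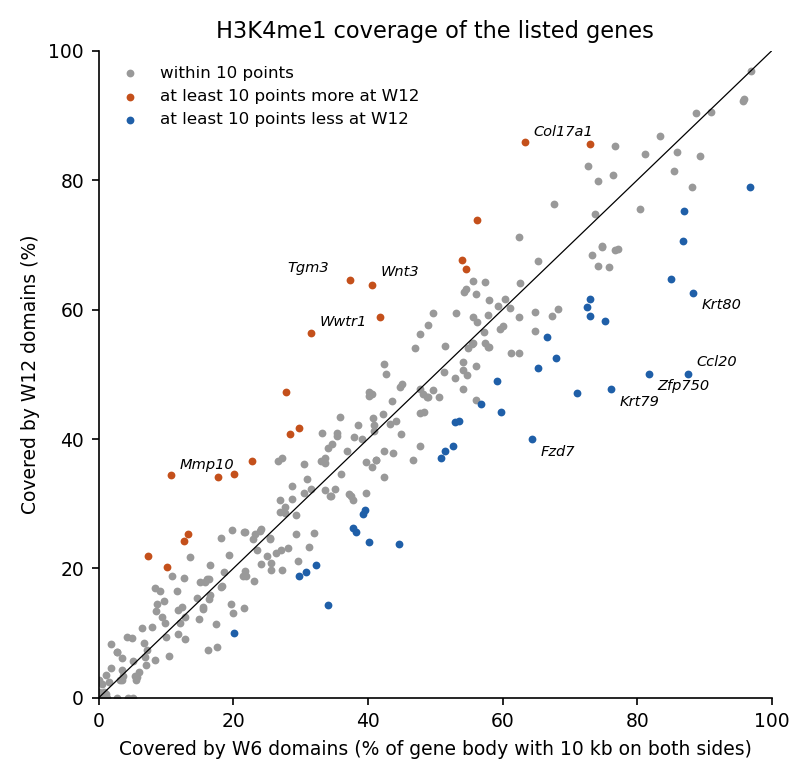
Coverage of each listed gene (body with 10 kb on both sides) by W6 domains (x axis, %) and W12 domains (y axis, %), 1 point per gene, with the line of equal coverage; colour shows a difference of at least 10 points. Most points lie near the line, 20 genes are coloured above it, among them *Tgm3* and *Wwtr1*, and 36 below it, among them *Ccl20* and *Zfp750*.

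Inflammatory genes of the NF-κB list were covered less in 6 of 26 cases, with 0 covered more and a median difference of 0.422 points. The chemokine genes *Ccl20* (87.5% at W6 and 49.996% at W12) and *Cxcl1* (68.0% and 52.5%) and *Nfkbia*, which encodes the NF-κB inhibitor IκBα (86.9% and 70.5%), were the largest, and *Cxcl2*, *Il1b* and *Rel* were the others. For comparison *Ccl20* had 80.2% at D0, and *Cxcl1* had 45.1%. Among RUNX and AP1 factor genes 0 of 17 were covered more and 2 less, *Jun* (52.7% and 38.9%) and *Runx3* (29.7% and 18.9%). Among keratins of stress and simple epithelia 2 of 10 were covered less, *Krt80* (88.3% and 62.6%) and *Krt7* (50.8% and 37.1%), while the stress keratin gene *Krt6a* had 76.7% and 85.2%.

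The list of epithelial-mesenchymal transition (EMT) regulators and matrix genes had 5 of 28 genes covered more and 1 less, with a median difference of 2.25 points. The matrix metalloproteinase genes *Mmp10* (10.8% and 34.4%) and *Mmp3* (7.30% and 21.9%) and the fibronectin receptor subunit gene *Itga5* (54.0% and 67.6%) were covered most in addition, followed by *Snai2* and *Tgfbr1*. *Tgfb3*, a TGF-β ligand gene, was covered less (59.8% and 44.2%). Among 24 cell cycle genes and oncogenes 4 were covered more and 5 less. *Wwtr1*, which encodes the Hippo pathway effector TAZ (31.5% and 56.4%), *Cdkn2b* (27.9% and 47.3%) and *Cdk6* (17.8% and 34.2%) were covered more, and 18.2 kb of W12-only domains lay in the *Wwtr1* interval. The cyclin gene *Ccnd2* (44.7% and 23.8%), *Hras* (40.2% and 24.1%) and the cell cycle inhibitor gene *Cdkn1b* (65.3% and 51.0%) were covered less.

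Genes that define the sorted cells were covered at both times. *Krt5* had 96.9% at W6 and at W12, and *Ly6a*, one of the sorting markers, 64.8% and 59.6%. *Itga6*, which encodes the sorting marker CD49f, had 41.9% and 58.9%, *Itgb4* 35.9% and 43.4%, and *Epcam* 39.3% and 28.4%. Over all protein-coding genes the median was 15.7% at W6 and 15.4% at W12. Most lists of markers of other cell types had lower medians at W6 and W12. These were 6.98% and 5.04% for immune cells, 7.23% and 9.76% for fibroblasts, 7.77% and 9.91% for endothelium, and 6.11% and 5.92% for muscle and nerve. Melanocyte markers had higher medians, 18.2% and 19.6%. Single markers reached 54.9% at W6 (immune cells) and 56.2% at W12 (endothelium). Of the 54 markers of other cell types 0 were covered more and 2 less. In bulk samples fewer cells of a type and less of a mark per cell cannot be told apart. Among domains, 45 W6-only (0.298%) and 32 W12-only (0.363%) had an olfactory, vomeronasal or trace amine receptor gene, genes known from sensory neurons, as the nearest protein-coding gene, against 0.177% of all W6 and 0.175% of all W12 domains.

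Motif letters in the central 400 bp of the domains differed most for AP1, the dimer of FOS and JUN proteins. The AP1 letters TGANTCA, on either strand, were found in 24.4% (23.5 to 25.3%) of W12-only and 15.5% (14.9 to 16.1%) of W6-only domains, against 17.3% of shared domains in each list and 17.0% and 18.1% of all W6 and all W12 domains. In distal domains the shares were 25.2% and 16.5%, against 20.5% of all W12 and 19.1% of all W6 distal domains. In domains of 1000 to 2000 bp they were 27.4% and 15.3%, against 21.5% of all W12 and 19.2% of all W6 domains of that width. In W12-only domains called at D0 the share was 20.6%, and in those of no earlier list 30.4%. In W6-only domains the same shares were 13.5% and 20.1%.

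The other motifs differed less. The SOX letters ACAAAG or ACAATG were present in 48.3% of W6-only and 47.2% of W12-only domains, against 45.1% of all W6 and 44.9% of all W12 domains. RUNX letters (TGTGGT) were present in 26.8% and 29.8%, against 27.3% and 27.9%, and GATA letters (AGATAA) in 22.9% and 21.7%, against 20.7% and 20.6%. TEAD and NFI letters lay between 23.0% and 24.3% in both sets and between 21.7% and 22.9% in the whole lists. GRHL letters were in 605 of 15125 W6-only and 269 of 8806 W12-only domains (3.05%), against 3.81% and 3.57% of all W6 and all W12 domains, and ETS letters in 2.03% of each set, against 2.40% and 2.31%. Among matched pairs, AP1 letters were present in 19.3% of those at least 1.5-fold wider at W12 and in 19.2% of those at least 1.5-fold narrower. Of all matched pairs 17.9% held them. The median GC content was 45.6% in W6-only and 44.9% in W12-only domains, against 46.2% and 46.0% in shared ones. Domains with more than 50% of their bases repeat-masked were 4.43% of the W6-only and 2.42% of the W12-only set, against 1.43% and 1.54% of shared domains.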

How the data were processed

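H3K4me1 and H3K27ac were profiled by MINT-ChIP, an immunoprecipitation done on a pool of samples whose chromatin was barcoded first. As the study describes it, the authors trimmed reads with Skewer, aligned them to GRCm38/mm10 with Bowtie2 (2.2.9 in the submitters' processing notes), removed duplicates with Picard, merged replicates with Samtools, and called H3K4me1 domains with epic2 and H3K27ac peaks with MACS2 (2.1.1). Caller settings and controls are not given in the sources used here. The deposited H3K4me1 lists give a p-value per domain in 200-bp bins (largest 0.0496 at W6 and 0.0494 at W12). The deposited H3K27ac lists give a whole-number score and a linear fold enrichment per peak, and the lowest score was 13 in all 5. Total H3, cultured cells and barcode files were not used here. No depth is known for H3K4me1.

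Lists were read in Python 3.11.15 with pandas 2.3.3 and NumPy 2.4.6, and intervals of shares are Clopper-Pearson from SciPy 1.17.1. Mitochondrial domains, 2 at W6 and 0 at W12, were set aside. Start sites were the 77161 of 55413 genes in the GENCODE M21 basic set, and tRNA genes those of RefSeq for GRCm38. Domains were ranked by p-value, then width. Functions were tested on simulated lists. The genes named were the 10 domains with the smallest p-value in each set, the 10 genes with the most W6-only or W12-only bases, the 10 pairs that widened and the 10 that narrowed most, and up to 3 listed genes per direction and list; a few others are named for context, and some items that these rules select are not reported here. Members and gene lists were chosen with earlier results of these data known. Alternatives were a 50% overlap, p of at most 0.001, lists of equal length, joined domains, no X or Y, other distal limits, other flanks and other thresholds.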

Additional observations from a re-analysis of the deposited data

How the results depend on the processing

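W6-only counts lay between 12353 and 15526 and W12-only counts between 8358 and 10802 in all alternatives run. Of 70 values 41 were classed as the same as in the main setting and 29 as moved. Shares classed as moved lay outside the 95% interval of the main value. Counts were judged more loosely, since 12353 W6-only domains against 15125 were still classed as the same. Most values are counts or shares without a direction, so a change of direction could not be assessed. No paired analysis was possible because each list pools the replicates, and for the same reason no replicate could be left out. Joining, cutting or thinning the lists moved the Jaccard index to 0.647 (p of at most 0.001), 0.644 (lists of equal length), 0.652 (joined within 1000 bp) and 0.648 (no X or Y). The distal share of W6-only domains became 80.3% with lists of equal length and 82.1% when joined, and that of W12-only domains 84.2% at an overlap of 50%. With limits of 1000 bp and 10000 bp the distal shares were 86.3% and 56.9% for W6-only and 90.5% and 61.6% for W12-only domains, and from coding start sites 88.8% and 94.0%. The share called earlier was 75.1% (W6-only) and 65.4% (W12-only) with lists of equal length, 63.5% (W12-only) at an overlap of 50%, and 63.6% and 50.2% with D0 and W1 alone. W6-only domains with a W6 peak were 5.36% with lists of equal length and 3.76% when joined. Pairs wider at W12 were 46.7% with lists of equal length. When W6 domains with several W12 counterparts were included, 51.8% were wider and the median change was 200 bp, since the counterparts were then summed. Genes covered more and less numbered 1763 and 2161 with no flank, 250 and 409 with 50 kb, and 107 and 177 at 20 points. These gene counts therefore rest on the flank and threshold, and their balance on list length (1180 and 1207 with lists of equal length). In alternatives chosen after seeing the data, the W6-only share on X and on autosomes was 40.4% and 16.1% (equal length), 41.1% and 19.04% (overlap of 50%), and 40.3% and 18.5% (joined).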

Other observations

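The genes whose coverage differed most between W6 and W12 were chosen after their values were seen. After *Sfi1*, those covered more at W12 included *Gng11*, a G protein subunit gene (0% at W6 and 42.4% at W12), *Lyl1*, a transcription factor gene (28.0% and 66.7%), and the MHC class Ib genes *H2-T23* (32.4% and 70.5%) and *H2-T22* (10.9% and 46.3%). The H2-T genes are close paralogs, and how reads were divided among them is not given in the sources used here. Earlier, *H2-T23* had 60.1% at D0, 29.6% at W1 and 27.2% at W2, and *H2-T22* had 35.9%, 7.81% and 10.1%. *Lyl1* had 65.4% at D0, 43.5% at W1 and 75.3% at W2. *Ehd3*, an endocytic gene, had 3.34% at W6 and 37.9% at W12. Its earlier values were 6.26% at D0, 2.50% at W1 and 35.9% at W2, and the W12 libraries also held W2 replicate 1. *Sox18*, a SOX family gene of vessels, had 31.9% at W6 and 64.0% at W12.

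Those covered less at W12 included *Defb6*, a β-defensin gene (63.4% at W6 and 7.92% at W12), *Cldn8*, a claudin gene (66.1% and 24.97%), *Klk7*, a protease gene of the cornified layer (92.0% and 53.3%), *Krt72*, a keratin gene of the inner root sheath (60.8% and 22.5%), and *Klf15* (81.4% and 45.9%). At D0 *Defb6* had 16.7%, *Cldn8* 45.5%, *Klk7* 54.9%, *Krt72* 48.3% and *Klf15* 53.3%. H3K27ac was listed at 0 at W12 over *Defb6*, *Cldn8* and *Klf15*, with 1.81%, 7.63% and 8.66% of the interval covered at W6.

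Shares without a counterpart differed among all pairs of the 5 lists, from 5.96% (W1 domains with no D0 domain) to 32.4% (D0 domains with no W2 domain). Comparisons that involve the same list share its libraries.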
